A study of Mus musculus with 6 samples.

Results

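Genes of Wnt signalling were measured by RNA sequencing in A2ARKO and WT primary chondrocytes, the matrix-forming cells of cartilage, from neonatal mice. A2ARKO stands for the knockout of the adenosine receptor gene Adora2a and WT for wild type. The 51 genes are the rows of the deposited table whose symbol is on a list of Wnt ligands, receptors, inhibitors and targets, and all 51 were found among its 47480 genes. The labels call the knockout global, so the gene is missing in all cells and not only in cartilage, and both genotypes are labelled C57BL/6 and were raised in 1 facility. Each library holds RNA of trypsinized chondrocytes pooled over a whole litter, with 3 litters a genotype, so a replicate is a litter pool and the p-values rest on the spread from litter to litter. The stated purpose of the study was to find drivers of osteoarthritis, in which joint cartilage is lost. Levels are FPKM, which scale the sequenced fragments of a gene for its length and for the size of the library, and are listed for replicates 1, 2 and 3 in that order.

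Wnt proteins are lipid-modified ligands that need the acyltransferase Porcn and the carrier Wls to leave the cell. They bind Frizzled receptors, together with Lrp5 or Lrp6 in the pathway that keeps beta-catenin (Ctnnb1) from being degraded, or with Ror1 or Ror2 in pathways that do not use beta-catenin. R-spondins bound to Lgr receptors keep the ubiquitin ligases Znrf3 and Rnf43 from removing Frizzled, and many secreted proteins (Dkk, Sfrp, Frzb, Wif1, Notum) dampen the signal. In cartilage, Wnt signals take part in joint formation and in the maturation of chondrocytes, and loss or excess of beta-catenin signalling in mice damages articular cartilage.

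The deleted gene Adora2a had 0.41, 0.54 and 0.66 FPKM in A2ARKO and 9.36, 7.31 and 3.46 FPKM in WT (limma adjusted p = 0.0203), so each library matched its label. Sequencing depth, read off the smallest steps of the FPKM values, was 51.5 to 58.1 M reads in A2ARKO and 41.6 to 52.6 M reads in WT (M, mega). The libraries differed in markers of cell types, most of all within WT. Summed over the 12 of 14 listed chondrocyte markers that the table names, such as Col2a1 and Acan, the FPKM was 2239, 4485 and 6279 in A2ARKO and 25562, 1337 and 487 in WT. WT replicate 1 was thus the richest in cartilage genes and WT replicate 3 the poorest, while all 12 markers reached 1 FPKM in at least 1 library. Marker by marker, 11 of the 12 had a log2 fold change (A2ARKO minus WT) above 0, with a median of 0.90, and 0 were called. Macrophage markers summed to 26.5 to 53.2 FPKM in A2ARKO and to 185, 1950 and 134 FPKM in WT. Every A2ARKO library was below every WT library in this sum, although 0 of the 10 macrophage markers tested were called. Of these 10, 8 were lower in A2ARKO with no overlap between groups, where 32.9% of all tested genes did not overlap in either direction. An unadjusted limma p below 0.05 was found for 7 of the 10 and for 24.7% of all tested genes. Skeletal muscle markers summed to 10.2 to 30.4 FPKM in A2ARKO and to 7.45, 959 and 19.0 FPKM in WT. Both sums were highest in WT replicate 2. The sums of fibroblastic markers (3480 to 4895 FPKM in A2ARKO, 6512 to 9458 FPKM in WT) and tendon markers (243 to 296 FPKM in A2ARKO, 299 to 1196 FPKM in WT) did not overlap either. Single fibroblastic markers went both ways: of 9 tested, 4 had a log2 fold change above 0 and 5 below 0, and 1 was called lower. The 4 tendon markers tested all lay below 0, and 0 were called. Osteoblast, synovial, smooth muscle and adipocyte sums overlapped, and endothelial, keratinocyte and erythroid markers summed to at most 3.76 FPKM in any library. Within the overlapping sums, 1 of 6 synovial and 1 of 5 adipocyte markers tested were called higher in A2ARKO. No osteoblast or smooth muscle marker was called. The part of these differences in the Wnt results was not tested. In such bulk samples, fewer cells of a type and less RNA per cell cannot be told apart. Calls that ended when a single library was left out are named below.

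Among the 51 genes, 38 reached the filter of at least 1 FPKM in at least 3 of the 6 libraries and were tested. A gene was called at a Benjamini-Hochberg adjusted p below 0.05 in a limma fit of all 11595 genes that passed this filter. Of the 38, 2 were called higher in A2ARKO (Notum and Apcdd1), 6 were called lower (Lgr5, Nkd1, Dkk3, Fzd2, Wls and Fzd1) and 30 were not called. Over all tested genes 3.31% were called higher (384), 1.77% lower (205) and 5.08% in either direction (589), against 5.26%, 15.8% and 21.1% of the 38. The groups did not overlap for 13 of the 38 (34.2%), against 32.9% of all tested genes, so that share was near the background. An unadjusted limma p below 0.05 was found for 14 of the 38 (36.8%) and for 24.7% of all tested genes. A total of 25 of the 38 fold changes lay below 0, with a median log2 fold change of -0.20, beside a median of 0.00 over all tested genes. Lgr5 and Dkk2 stayed below 1 FPKM in all A2ARKO libraries and were tested through their WT values. Notum reached 1 FPKM in all A2ARKO libraries but in WT only in replicate 3 (1.06 FPKM), so it passed mainly through A2ARKO. The 51 genes were also chosen with earlier results of these data known. For both reasons these counts are a description and do not test the list. Rescaling all libraries to 1 common sum left 1 of the higher and 4 of the lower calls, put 27 of the 37 genes then tested below 0 (Tcf7 no longer reached the filter), and gave 178 higher and 170 lower calls over all genes. With no filter on low values Fzd2 alone of the 8 passed (limma adjusted p = 0.0332), and each fit without 1 A2ARKO library left 2 calls or fewer among the 8. Each of the 8 kept an unadjusted limma p below 0.05 in all 6 fits that left out a library, 0.0129 being the highest. On mm10 the called genes lie, by GENCODE M21, at chr11:120653788-120661175 (Notum), chr18:62922231-62961179 (Apcdd1), chr10:115450311-115587780 (Lgr5), chr8:88521354-88594884 (Nkd1), chr7:112116017-112159057 (Dkk3), chr11:102604396-102608058 (Fzd2), chr3:159839672-159938664 (Wls) and chr5:4753839-4758035 (Fzd1).

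**Figure D1:**
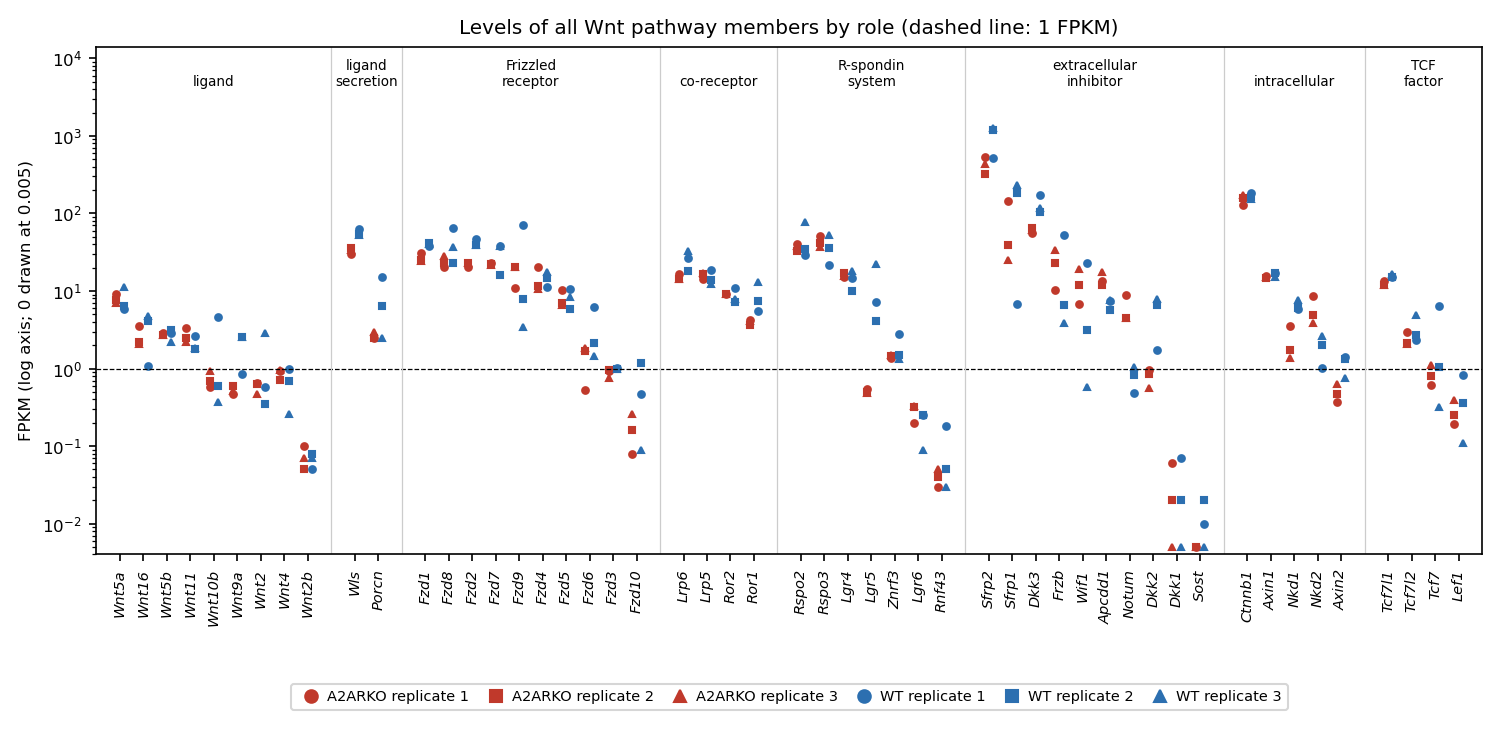
FPKM on a log axis of all 51 genes, grouped by role, in the 3 A2ARKO libraries (red, left of each pair) and the 3 WT libraries (blue). Sfrp2 and Ctnnb1 were the most abundant on average, and 13 genes did not reach 1 FPKM (dashed line) in 3 libraries.

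Promoter sequence from RefSeq (GRCm38.p6, the assembly named mm10) was at hand for 34 of the 51 genes and for 3 of the 8 called ones, all 3 lower in A2ARKO. The 250 bases before the start are printed 5′ to 3′ on the gene's strand: for Wls at chr3:159839400-159839649 (plus), for Fzd1 at chr5:4758217-4758466 (minus) and for Nkd1 at chr8:88527383-88527632 (plus). The window of Nkd1 belongs to a RefSeq start inside the GENCODE gene, which begins upstream at 88521354. These 3 windows are shown because no other called gene had promoter sequence at hand. Nkd1 is a known feedback target of beta-catenin.
Wls: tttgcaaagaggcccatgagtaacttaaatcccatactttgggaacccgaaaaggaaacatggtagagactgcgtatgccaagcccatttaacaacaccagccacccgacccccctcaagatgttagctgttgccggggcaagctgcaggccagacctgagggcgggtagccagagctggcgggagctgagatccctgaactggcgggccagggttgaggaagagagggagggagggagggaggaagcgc
Fzd1: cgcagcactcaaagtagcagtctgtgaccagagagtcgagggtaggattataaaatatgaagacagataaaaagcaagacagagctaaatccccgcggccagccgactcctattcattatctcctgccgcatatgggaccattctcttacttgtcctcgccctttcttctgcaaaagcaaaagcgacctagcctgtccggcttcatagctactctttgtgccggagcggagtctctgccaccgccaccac
Nkd1: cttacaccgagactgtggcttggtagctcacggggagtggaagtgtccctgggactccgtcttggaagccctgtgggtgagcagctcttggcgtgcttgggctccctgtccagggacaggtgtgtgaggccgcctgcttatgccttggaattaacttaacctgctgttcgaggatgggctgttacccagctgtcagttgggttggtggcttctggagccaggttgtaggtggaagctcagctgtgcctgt
Each was searched on both strands for the TCF heptamers, spelled CTTTGAA or, with another ending, CTTTGAT or, where the sixth letter differs, CTTTGTA or, where both differ, CTTTGTT, for the cAMP response half-site TGACG and for the AP-1 site TGANTCA. None of the 3 windows held any of these letters, so no base is in capitals. Among 32536 windows of the same length before annotated mouse starts, 14.9% held a TCF heptamer, 17.9% the half-site and 6.73% the AP-1 site. Over the 44 windows of the 34 genes, 6 held a TCF heptamer (13.6%).

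Of the ligands, the transcripts measured here were modest in level, and none of the 4 that were tested was called. Wnt5a, a ligand that acts mainly without beta-catenin, was the most abundant of the 9. It read 9.21, 7.67 and 6.99 FPKM in A2ARKO and 5.83, 6.44 and 11.3 FPKM in WT, so the groups overlapped. Its log2 fold change was 0.06 with a 95% interval of -0.52 to 0.64 (limma adjusted p = 0.905). Wnt5a made up 41.2% to 43.4% of the summed FPKM of the 9 ligands in A2ARKO and 29.9% to 43.3% in WT. For Wnt5b the interval was -0.28 to 0.31 and for Wnt11 -0.16 to 0.63, and both genes stayed between 1.81 and 3.31 FPKM in all libraries. Wnt16, a ligand studied in bone and injured cartilage, had 3.57, 2.20 and 2.10 FPKM in A2ARKO and 1.08, 4.15 and 4.71 FPKM in WT. WT replicate 1 was the lowest of all 6 libraries and the other two WT libraries the highest, so the groups overlapped. Wnt2, Wnt2b, Wnt4, Wnt9a and Wnt10b were below the filter, Wnt4 at 0.71 to 0.97 FPKM in A2ARKO and 0.26 to 0.99 FPKM in WT and Wnt2 at 0.47 to 0.65 FPKM in A2ARKO and 0.35 to 2.84 FPKM in WT. Of these, Wnt9a, which in mice takes part in joint formation, did not overlap between groups: 0.47, 0.59 and 0.51 FPKM in A2ARKO, against 0.85, 2.54 and 2.53 FPKM in WT. Wnt10b was highest in WT replicate 1 (4.58 FPKM) and at most 0.94 FPKM elsewhere, and Wnt2b did not pass 0.1 FPKM in any library.

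Among the genes of ligand export, the transcript of Wls, the membrane protein that carries Wnt proteins to the cell surface, was called lower in A2ARKO. Wls had 29.7, 36.0 and 34.1 FPKM in A2ARKO and 62.7, 54.8 and 52.5 FPKM in WT. All A2ARKO libraries were below all WT libraries, and the mean was 33.3 ± 3.27 FPKM in A2ARKO and 56.7 ± 5.36 FPKM in WT (SD, n = 3 each). The difference on the log2 scale came to -0.75 ± 0.12 (SE, limma adjusted p = 0.0285). Leaving out single libraries kept it between -0.81 and -0.67, but the call was lost without WT replicate 2 (adjusted p = 0.0597) and likewise without A2ARKO replicates 1, 2 and 3 (0.0877, 0.106 and 0.119). Porcn, the acyltransferase of the ligands, read 2.48, 2.45 and 2.94 FPKM in A2ARKO and 15.3, 6.47 and 2.45 FPKM in WT. WT replicate 3 equalled A2ARKO replicate 2, and Porcn was not called (log2 fold change -1.05, 95% interval -2.34 to 0.24).

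Frizzled genes were expressed at several-fold different levels, and 2 of the 8 tested ones fell in A2ARKO. Fzd2 read 20.6, 23.3 and 23.1 FPKM in A2ARKO and 46.1, 38.8 and 39.1 FPKM in WT. The groups were well apart, with a log2 difference of -0.86 ± 0.11 (SE, limma adjusted p = 0.0150), the smallest adjusted p of the 38. Fzd2 passed without each WT library but not without A2ARKO replicates 1, 2 and 3 (adjusted p = 0.0640, 0.0829 and 0.0785). Fzd1 had 31.0, 25.3 and 24.4 FPKM in A2ARKO and 38.5, 41.7 and 40.9 FPKM in WT. The lowest WT library was still above the highest A2ARKO library, but the difference was smaller (log2 fold change -0.57, standard error 0.11, limma adjusted p = 0.0467). Fzd1 did not pass in any of the 6 fits that left out a library, with adjusted p between 0.0511 (without WT replicate 1) and 0.200 (without A2ARKO replicate 2), nor after rescaling to the same sum (0.0966).

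Fzd8 and Fzd7 varied less among the A2ARKO libraries than among the WT libraries. Fzd8 read 20.2, 23.0 and 28.1 FPKM in A2ARKO and 65.1, 22.8 and 36.6 FPKM in WT. Fzd7 read 22.9, 22.5 and 21.4 FPKM in A2ARKO and 38.4, 16.0 and 38.4 FPKM in WT. In both, WT replicate 2 lay within or below the A2ARKO range, and neither gene was called with all libraries. Without WT replicate 2, Fzd7 passed with a difference of -0.76 on that scale (limma adjusted p = 0.0240). Fzd9 ranged widest, at 10.9, 20.5 and 20.3 FPKM in A2ARKO and 71.1, 7.83 and 3.41 FPKM in WT. Summed over the 10 Frizzled genes, FPKM lay between 136 and 137 in A2ARKO and between 152 and 289 in WT. Fzd4 and Fzd5 averaged 14.0 and 7.95 FPKM in A2ARKO and 14.5 and 8.28 FPKM in WT, and their groups overlapped. Fzd6 was at or below 1.82 FPKM in A2ARKO and at 6.16, 2.12 and 1.46 FPKM in WT. Fzd3 and Fzd10 were below the filter, Fzd3 at 0.75 to 0.97 FPKM in A2ARKO and 0.98 to 1.01 FPKM in WT and Fzd10 at 0.08 to 0.26 FPKM in A2ARKO and 0.09 to 1.18 FPKM in WT.

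None of the 4 co-receptors was called with all libraries. Lrp6, which with Lrp5 passes the signal to beta-catenin, read 16.7, 14.5 and 14.3 FPKM in A2ARKO and 26.6, 18.01 and 32.8 FPKM in WT. Its groups did not overlap (log2 fold change -0.69, standard error 0.21, limma adjusted p = 0.119). Without WT replicate 2, the lowest WT library, its log2 fold change was -0.92 and it passed (adjusted p = 0.0399). Lrp5 averaged 16.1 ± 1.56 FPKM in A2ARKO and 14.9 ± 3.23 FPKM in WT (SD, n = 3 each), and the groups overlapped. Whether the change of Lrp6 differs from that of Lrp5 was not tested. Ror1, a receptor for Wnt5a, read 4.25, 3.66 and 4.16 FPKM in A2ARKO and 5.44, 7.34 and 13.1 FPKM in WT. No library of either group crossed into the other, and the log2 fold change of -0.86 was not called (limma adjusted p = 0.132). Its relative Ror2 was at 9.20 to 9.25 FPKM in A2ARKO and at 7.26 to 10.8 FPKM in WT.

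The largest difference among the 38 was that of Lgr5, an R-spondin receptor and itself a target of beta-catenin in intestinal stem cells. Lgr5 read 0.55, 0.50 and 0.48 FPKM in A2ARKO and 7.21, 4.10 and 22.1 FPKM in WT. All A2ARKO values were below 1 FPKM, while the WT values spread over a range of several-fold, with replicate 3 the highest. The mean was 21.8-fold lower in A2ARKO, or 11.1-fold lower without WT replicate 3. On the log2(FPKM + 1) scale the difference came to -2.71 ± 0.53 (SE, limma adjusted p = 0.0457). With annotated exon lengths, these values correspond to about 260 to 298 reads a library in A2ARKO and about 2097 to 11924 reads in WT. The call was lost without WT replicate 1 (adjusted p = 0.0549) and likewise without A2ARKO replicates 1, 2 and 3 (0.139, 0.172 and 0.163), while the log2 fold change stayed between -3.19 and -2.10. Lgr5 lies on chromosome 10 like the deleted Adora2a, 40.1 Mb from it. So do Rspo3 and Wif1, which were not called, 45.8 and 45.7 Mb from it.

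The rest of the R-spondin system was not called. Lgr4, the broadly expressed relative of Lgr5, read 15.1, 17.2 and 15.7 FPKM in A2ARKO and 14.6, 10.1 and 18.3 FPKM in WT (log2 fold change 0.18, 95% interval -0.32 to 0.68). Lgr5 made up 2.78% to 3.48% of the summed FPKM of Lgr4, Lgr5 and Lgr6 in A2ARKO and 28.5% to 54.5% in WT. Among the ligands of these receptors, Rspo2 read 40.4, 33.0 and 38.0 FPKM in A2ARKO and 29.0, 35.1 and 76.7 FPKM in WT. Rspo3 read 51.3, 41.7 and 36.5 FPKM in A2ARKO and 21.9, 35.8 and 52.4 FPKM in WT. In both R-spondin genes the WT libraries lay on either side of the A2ARKO libraries, with WT replicate 1 lowest and WT replicate 3 highest. The ligase gene Znrf3 averaged 1.44 ± 0.0819 FPKM in A2ARKO and 1.86 ± 0.775 FPKM in WT (SD, n = 3 each). Rnf43 and Lgr6 did not reach 0.4 FPKM in any library.

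**Figure D2:**
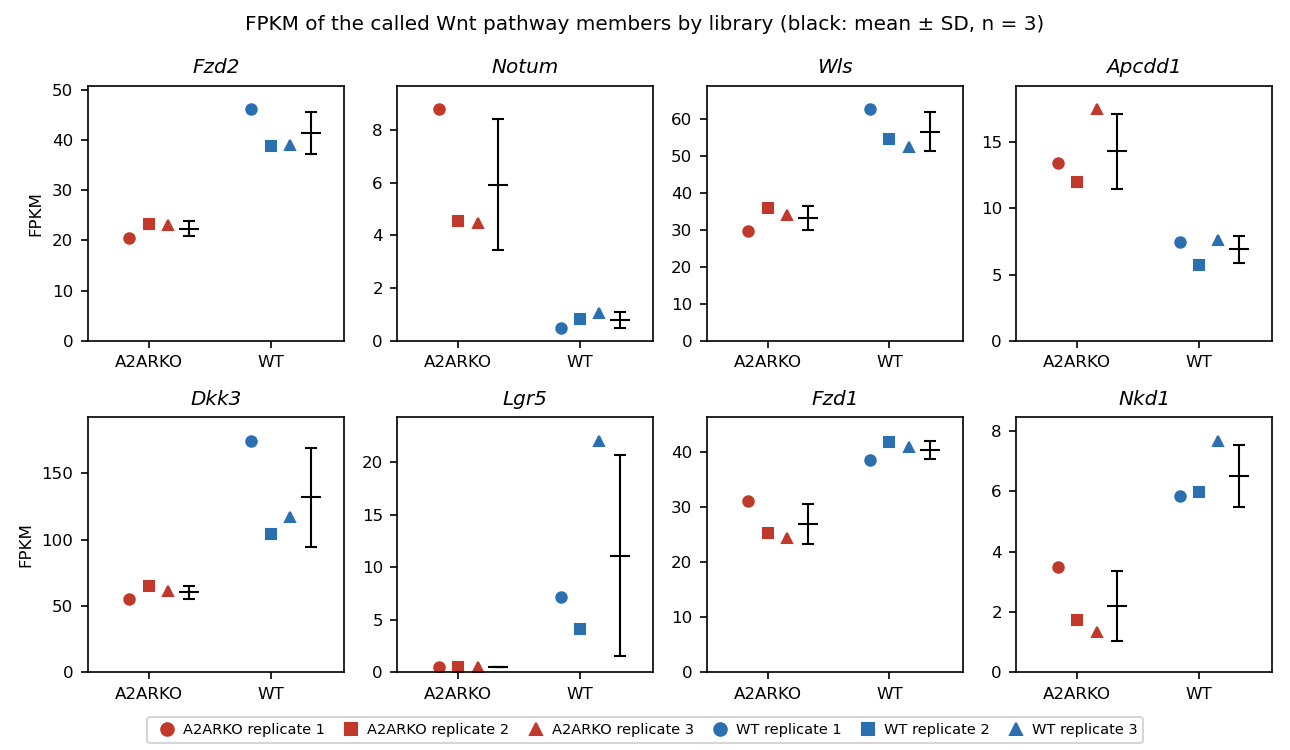
FPKM of the 8 called genes in the 3 A2ARKO libraries (left in each panel) and the 3 WT libraries (right), with mean ± SD in black and axes from 0. Notum and Apcdd1 were higher in A2ARKO and the other 6 lower, Lgr5 at 0.48 to 0.55 FPKM in A2ARKO and 4.10 to 22.1 FPKM in WT.

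Extracellular inhibitors moved in both directions. Notum, a secreted deacylase that strips the lipid from Wnt proteins, read 8.78, 4.53 and 4.45 FPKM in A2ARKO and 0.49, 0.83 and 1.06 FPKM in WT. Every A2ARKO library was more than 4 FPKM, and no WT library passed 1.06 FPKM. The mean was 7.46-fold higher in A2ARKO, and the difference on the log2 scale came to 1.90 ± 0.26 (SE, limma adjusted p = 0.0201). Its call was lost when WT replicate 2 was left out (adjusted p = 0.0553) and when A2ARKO replicate 2 or 3 was (0.0746 and 0.0698). An antisense gene, Notumos, overlaps 29.4% of its exon bases and read 0.05 to 0.13 FPKM in A2ARKO and 0.01 to 0.02 FPKM in WT. Without a known strand setting, the reads of this pair cannot be separated.

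Apcdd1, a membrane-anchored inhibitor that binds Wnt and Lrp5, read 13.4, 12.0 and 17.5 FPKM in A2ARKO and 7.42, 5.73 and 7.57 FPKM in WT. The groups did not overlap, and the difference on the log2 scale came to 0.94 ± 0.17 (SE, limma adjusted p = 0.0365). The call was lost without WT replicate 2 (adjusted p = 0.0742), without A2ARKO replicates 1, 2 and 3 (0.113, 0.0953 and 0.114) and after rescaling to the same sum (0.0527). Dkk3, a divergent member of the Dickkopf family, went the other way, with 55.2, 64.8 and 61.5 FPKM in A2ARKO and 175, 104 and 117 FPKM in WT. Its mean was 60.5 ± 4.86 FPKM in A2ARKO and 132 ± 37.5 FPKM in WT (SD, n = 3 each), at a log2 difference of -1.08 ± 0.21 (SE, limma adjusted p = 0.0455). Without WT replicates 2 and 3 the adjusted p was 0.0548 and 0.0591, and without A2ARKO replicates 1, 2 and 3 it was 0.144, 0.163 and 0.163.

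Dkk2, an Lrp5 and Lrp6 antagonist, was not called, although its groups did not overlap. It read 0.95, 0.86 and 0.56 FPKM in A2ARKO and 1.74, 6.58 and 7.91 FPKM in WT (log2 fold change -1.68, standard error 0.44, limma adjusted p = 0.0872). WT replicate 1 was nearest to the A2ARKO libraries, and without it Dkk2 passed at -2.21 (adjusted p = 0.00597). Sfrp2, a secreted Frizzled-related protein, was the most abundant of all 51 genes and made up 66.2% or more of the summed FPKM of the 10 inhibitor genes in every library. It read 535, 325 and 437 FPKM in A2ARKO and 522, 1186 and 1253 FPKM in WT, where WT replicate 1 lay within the A2ARKO range. With all libraries Sfrp2 was not called (log2 fold change -1.12, standard error 0.41, limma adjusted p = 0.165), and without WT replicate 1 it passed at -1.52 (adjusted p = 0.0367). Sost and Dkk1 were at or near 0, at most 0.02 and 0.07 FPKM.

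Of the feedback genes inside the cell, Nkd1 was called lower and its relative Nkd2 was not called; their proteins bind Dishevelled and restrain the pathway. Nkd1 read 3.50, 1.73 and 1.35 FPKM in A2ARKO and 5.85, 5.96 and 7.67 FPKM in WT. The groups did not overlap, and the difference on the log2 scale came to -1.28 ± 0.26 (SE, limma adjusted p = 0.0481). Nkd1 was close to the threshold and passed without A2ARKO replicate 1 (adjusted p = 0.0332). It did not pass without A2ARKO replicates 2 and 3 (0.187 and 0.157), without WT replicates 1, 2 and 3 (0.0590, 0.0929 and 0.0836), after rescaling to the same sum (0.0612) or with a pseudocount of 0.1 FPKM (0.0550). Nkd2 read 8.50, 4.87 and 3.88 FPKM in A2ARKO and 1.03, 2.01 and 2.65 FPKM in WT. It had no overlap between groups either but was not called (log2 fold change 1.20, standard error 0.32, limma adjusted p = 0.0852). The ratio of Nkd2 to Nkd1 was 2.43, 2.82 and 2.87 in A2ARKO and 0.176, 0.337 and 0.346 in WT, and this difference between the genes was not tested.

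Axin2, the feedback inhibitor most used as a readout of beta-catenin signalling, was below the filter. It read 0.37, 0.47 and 0.63 FPKM in A2ARKO and 1.39, 1.32 and 0.76 FPKM in WT, about 105 to 183 reads a library in A2ARKO and about 220 to 362 in WT. The groups did not overlap, and in the fit with no filter its log2 fold change was -0.52 (limma adjusted p = 0.204). Axin1, its constitutive relative, was level at 14.5 to 15.5 FPKM in A2ARKO and 15.2 to 17.1 FPKM in WT. Ctnnb1, encoding beta-catenin, was the second most abundant gene, at 127, 158 and 173 FPKM in A2ARKO and 184, 164 and 156 FPKM in WT. These groups overlapped, and the 95% interval of its log2 fold change was -0.53 to 0.24.

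None of the TCF factors, through which beta-catenin acts on genes, was called. Tcf7l1, often a repressor of targets, was the most abundant and read 13.4, 11.8 and 11.9 FPKM in A2ARKO and 15.4, 15.3 and 16.8 FPKM in WT. All A2ARKO values were below all WT values, at a log2 difference of -0.33 ± 0.09 (SE, limma adjusted p = 0.0849). Tcf7l2 averaged 2.41 ± 0.512 FPKM in A2ARKO and 3.33 ± 1.41 FPKM in WT (SD, n = 3 each). Tcf7 read 0.61, 0.80 and 1.11 FPKM in A2ARKO and 6.42, 1.04 and 0.32 FPKM in WT, and Lef1 stayed below 1 FPKM in all libraries. For both, WT replicate 1 was the highest and WT replicate 3 the lowest.

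**Figure D3:**
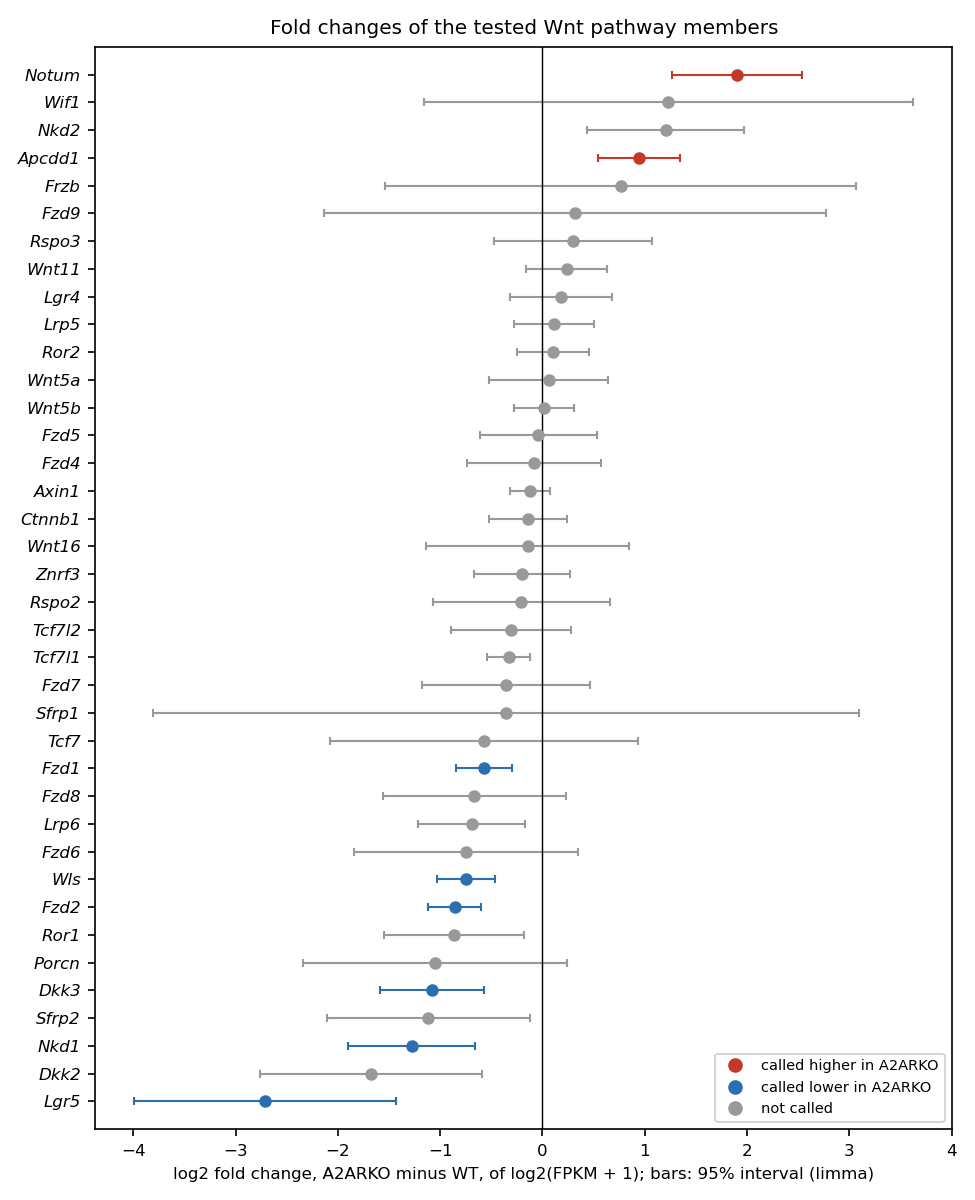
Log2 fold changes (A2ARKO minus WT) of the 38 tested genes with 95% intervals from limma, red and blue where called higher and lower in A2ARKO. Intervals were widest for Sfrp1 (-3.81 to 3.10), Fzd9 (-2.14 to 2.77) and Wif1 (-1.16 to 3.62).

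Several genes spread more among the WT litters than between genotypes. The median SD on the log2 scale of the 38 was 0.188 in A2ARKO and 0.426 in WT, where all 11595 tested genes had 0.0966 in A2ARKO and 0.192 in WT. Frzb, a secreted Frizzled-related protein of cartilage, read 10.3, 23.3 and 34.1 FPKM in A2ARKO and 52.5, 6.59 and 3.85 FPKM in WT. Wif1, which binds Wnt ligands and is made by cartilage, read 6.85, 11.8 and 19.0 FPKM in A2ARKO and 22.8, 3.15 and 0.57 FPKM in WT. Both ranked the 6 libraries exactly as the summed chondrocyte markers did. Sfrp1 ranked them exactly in reverse, with 145, 39.6 and 25.4 FPKM in A2ARKO and 6.70, 182 and 233 FPKM in WT. In all, 3 of the 38 (Frzb, Wif1 and Lrp5) had the order of the markers, which 1.36% of all tested genes had. Another 2 (Sfrp1 and Wnt16) had the reverse order, which 0.526% had. The part of cartilage cell content in these values was not tested.

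WT replicate 1 was the highest of the 6 libraries for 16 of the 38 genes (42.1%) and for 22.8% of all tested genes. It was the lowest for 7 of the 38 (18.4%) and for 24.3% of all tested genes. It was over 2 times the next library for 4 genes (10.5%), Tcf7, Fzd9, Fzd6 and Porcn, and for 1.26% of all tested genes. No gene of these 4 was called. Of the 8 called genes, all but Fzd1, Lgr5 and Nkd1 passed without WT replicate 1, and Wls, Fzd2, Notum, Apcdd1 and Lgr5 passed without WT replicate 3. Without WT replicate 2, the library high in macrophage and muscle markers, Fzd2 (adjusted p = 0.0341) and Lgr5 (0.0378) passed.

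**Figure D4:**
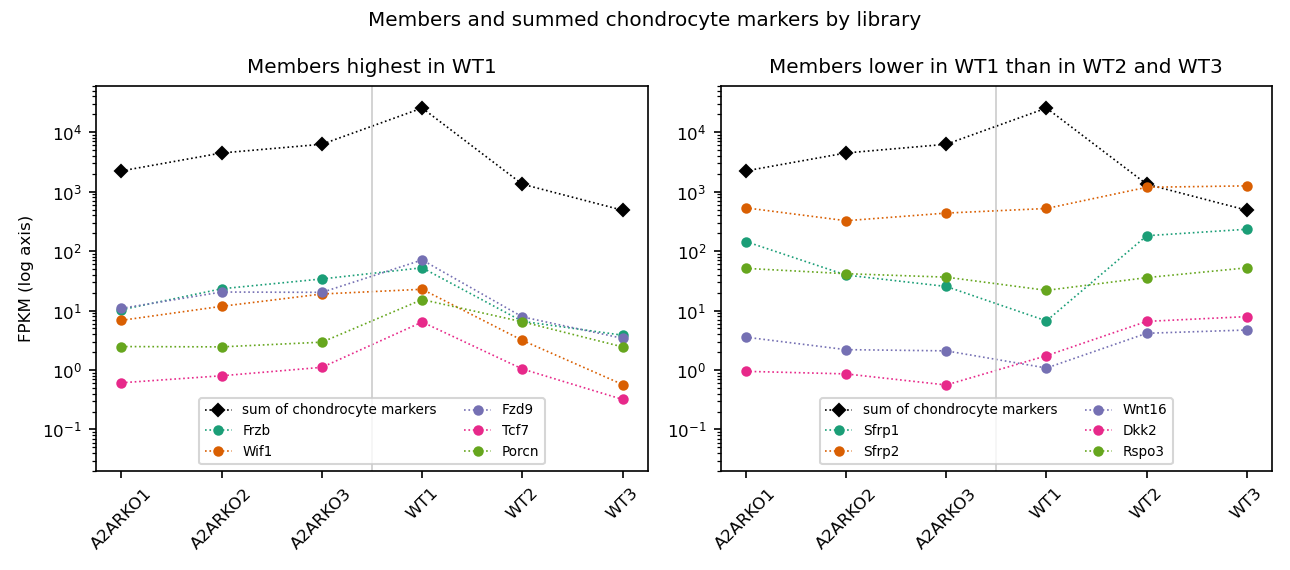
FPKM on a log axis of 10 genes, chosen after their values were seen, beside the summed FPKM of 12 chondrocyte markers (black) in the 3 A2ARKO and the 3 WT libraries, where dotted lines only join the points of a gene. Frzb and Wif1 (left panel) were highest in WT replicate 1, where the markers summed to 25562 FPKM, and Sfrp1 (right panel) was lowest there at 6.70 FPKM.

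Other genes of the pathway were taken from lists drawn up from general knowledge, but with earlier results of these data known. The counts over these lists are therefore a description. Of 110 tested, 5 were called higher, 5 lower and 100 not called (9.09% called, against 5.08% of all tested genes), with a median log2 fold change of 0.01. Among 25 tested genes reported elsewhere as beta-catenin targets, 4 were higher and 3 lower, where 3.31% of all tested genes were called higher and 1.77% lower. An unadjusted limma p below 0.05 was found for 15 of these 25 and for 24.7% of all tested genes. Fosl1, an AP-1 subunit, read 31.2, 25.7 and 25.3 FPKM in A2ARKO and 2.46, 4.09 and 2.62 FPKM in WT (log2 fold change 2.82, limma adjusted p = 0.00318). It shares 57.2% of its exon bases with Ccdc85b on the opposite strand, which read 25.3 to 37.9 FPKM in A2ARKO and 16.0 to 21.4 FPKM in WT. Ptgs2, the inducible prostaglandin synthase, and Plaur, the urokinase receptor, rose as well, at log2 fold changes of 1.97 (limma adjusted p = 0.00319) and 1.46 (0.0117), and so did Edn1 at 0.75 (0.0354). Edn1 was low, at about 132 to 143 reads a library in A2ARKO and about 16 to 53 in WT. It passed the filter only through A2ARKO, and with a pseudocount of 0.1 FPKM it was not called (limma adjusted p = 0.0557). Wisp1, a matricellular protein induced by Wnt1, read 11.2, 8.13 and 6.81 FPKM in A2ARKO and 25.5, 19.6 and 26.3 FPKM in WT (log2 fold change -1.37, limma adjusted p = 0.0219). Twist1 at -0.64 (adjusted p = 0.0457) and Fgf18 at -0.97 (0.0488) were the other lower ones. Fosl1 and Ptgs2 passed whichever single library was left out, with limma adjusted p of at most 0.0300 and 0.0320. Plaur was lost without each A2ARKO library in turn (adjusted p up to 0.0629), and Wisp1 without A2ARKO replicate 2 or 3 (up to 0.111). Edn1 was lost without each A2ARKO library in turn and without WT replicate 2 (up to 0.157). Of the 6 fits that left out a library, Twist1 passed only in that without WT replicate 2 and Fgf18 only in that without WT replicate 3, with adjusted p up to 0.189 and 0.181 in the others.

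Of 12 tested agonists, inhibitors and Dkk receptors outside the 51, Cthrc1, a secreted protein that favours Wnt signalling through Ror2, was lower. It read 7.88, 9.32 and 6.75 FPKM in A2ARKO and 73.4, 52.2 and 38.8 FPKM in WT (log2 fold change -2.60, limma adjusted p = 0.00771) and passed in all 6 fits that left out a library, at 0.0484 or less. Among 21 nuclear co-factors Tbl1xr1 was lower at -0.66 (adjusted p = 0.0346) and Ruvbl2 higher at 0.54 (0.0350). Both were lost without each A2ARKO library in turn and without WT replicate 2, with adjusted p up to 0.153 for Tbl1xr1 and 0.168 for Ruvbl2. Ruvbl2 shares 10.7% of its exon bases with the opposite-strand gene Gys1, which read 47.4 to 58.5 FPKM in A2ARKO and 23.3 to 34.5 FPKM in WT. None of 25 cytoplasmic signalling genes was called by limma, with 7 at an unadjusted p below 0.05 (24.7% of all tested genes were). Dact1, a Dishevelled-binding protein, came closest at -1.36 (adjusted p = 0.0507), followed by Cyld at 0.57 (adjusted p = 0.0784). None of 27 genes of planar cell polarity and other signalling without beta-catenin was called by limma either, with 2 at an unadjusted p below 0.05, Prkca (0.43, adjusted p = 0.134) and Daam1 (0.25, adjusted p = 0.176). The 10 Wnt ligand genes outside the 51 summed to at most 0.33 FPKM in A2ARKO and 0.91 FPKM in WT, and none was tested.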

How the data were processed

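Gene expression was measured by RNA sequencing in 3 A2ARKO and 3 WT litter pools of primary chondrocytes. The authors deposited 1 table of FPKM rounded to 2 decimals, with genes in rows. Per the submitters' processing notes HTSeq and mm10 were used, while the sources used here name no aligner, version, annotation or strandedness. FPKM hold no read counts, so no count model was used, and they are relative, so that 1 very abundant transcript can lower all others. The genotypes were compared in R 4.3.3 with limma 3.58.1 (eBayes with trend) on log2(FPKM + 1). The test was two-sided and had no block. Genes with 1 FPKM or more in at least 3 of 6 libraries were tested, with Benjamini-Hochberg adjustment over all of them. Fold changes are A2ARKO minus WT on that scale, where low genes appear to change less than they do. The exact permutation test of the 8 called genes and Adora2a gave p = 0.1 each, the smallest that 3 against 3 allow.

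The fit was tested on simulated data with known changes. Depth came from FPKM times GENCODE M21 exon length in genes of at most 150 nt, where 99.0% or more of those reaching at most 10 reads came within 0.1 of a whole read. The annotation behind the table may differ, so read numbers are approximate. The members and lists were chosen with earlier results of these data known. Named in full are called members, members at an unadjusted p below 0.05 with a log2 difference of 1 or more, and the 10 most abundant. Of the other lists, up to 4 called genes or the 2 with the smallest p are named. Other genes named singly, the AP-1 and cAMP motifs and the genes of the marker plot were chosen after their values were seen. Alternatives were a pseudocount of 0.1, no filter, rescaling to the same sum, quantile normalization, a replicate block and leaving out each library.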

Additional observations from a re-analysis of the deposited data

How the results depend on the processing

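The number of genes called over the whole table was 589 and became 213 when low genes were kept, 348 when all libraries were rescaled to 1 common sum, and 2 with a replicate block. It was 120, 50 and 75 without A2ARKO replicates 1, 2 and 3, and 900, 300 and 852 without WT replicates 1, 2 and 3. Among the 51 genes, 2 were called higher and 6 lower. With no filter these were 0 and 1, after rescaling 1 and 4 (the rescaling shifted the median of all genes by -0.10 on the log2 scale), and with a replicate block 0 and 0. With each library left out they ranged from 0 to 2 and from 0 to 5. Of the other pathway genes, 5 were called higher and 5 lower, against 3 and 1 with no filter, 3 and 3 after rescaling, and 0 and 0 with a replicate block. With each library left out these ranged from 2 to 9 and from 1 to 5. No called gene of the 51 changed its sign in any alternative. The groups of these genes did not overlap, so only rescaling or quantile normalization could have changed a sign. Same-numbered A2ARKO and WT libraries deviated against each other (correlations of -0.521, -0.325 and -0.387), and no library correlated best with its own number. Whether same-numbered libraries were prepared together was not tested. Fits without a library have fewer samples. Quantile normalization kept the 8 calls and a pseudocount of 0.1 kept 7 of them. For genes near 0 such as Dkk1, Sost and Rnf43, a difference was not detectable at this depth.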
